A study of Homo sapiens with 6 samples.

Results

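The genes considered here are known for holding lymphocytes in a tissue or letting them leave it. They were the 7 members CD69, S1PR1, S1PR4, S1PR5, KLF2, GPR183 and RGS1, taken by gene symbol from the 36601 genes of the count table, and every symbol was found. RNA was sequenced from NK92 (NK-92) cells, a human natural killer (NK) cell lymphoma line kept in IL-2, that stably carried either a control shRNA (shCtrl, n = 3 libraries) or an shRNA against the lncRNA miR155HG (shmiR155HG, n = 3 libraries). Cells of both groups were treated with IL-2 at 1000 U/mL and IL-12 at 10 ng/mL for 12 h, so the cytokines are common to all 6 libraries and no untreated cells enter the comparison. The labels do not say whether the 3 libraries of a group came from separate cultures or transductions, and p-values then measure the spread between these libraries, which may be technical. The labels do not give the number of shRNA sequences or clones behind shmiR155HG, and a single cell line stands for the NK cell.

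Sphingosine 1-phosphate (S1P), a lipid abundant in blood and lymph and scarce in tissue, draws lymphocytes out of tissues through G protein-coupled receptors on their surface. The transcription factor KLF2 keeps S1PR1 transcribed in resting lymphocytes, while the activation antigen CD69 binds the S1PR1 protein and takes it off the surface. NK cells are also known to use S1PR5 for leaving bone marrow and lymph nodes. GPR183 (EBI2) guides cells along oxysterol gradients within lymphoid organs, and RGS1 speeds the shut-off of G protein signalling below chemoattractant receptors and is a common marker of tissue-resident lymphocytes.

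Of the 7 members, KLF2 and S1PR4 rose in shmiR155HG cells. KLF2 rose 2.72-fold from 1.76 ± 0.714 to 4.79 ± 0.0971 normalized CPM (counts scaled to a common library size, mean ± SD, n = 3 each). S1PR4, an S1P receptor of blood cells, rose 1.34-fold from 31.5 ± 0.894 to 42.3 ± 2.76 CPM (SD, n = 3 each). CD69, S1PR1 and RGS1 did not pass the test, GPR183 was too low to be tested and S1PR5 was listed at 0 in every library. The test was the quasi-likelihood test of edgeR over 12263 genes that exceeded 1 CPM in 2 or more libraries, and a gene was called at a Benjamini-Hochberg adjusted p under 0.05. Among all genes tested, 7.26% were called higher and 8.02% lower in shmiR155HG cells, beside 2 members higher and 0 lower of the 5 tested. The median log2 fold change of these 5 was 0.05, beside 0.00097 over all genes tested.

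The total count per library lay between 33454786 and 39157264, and TMM scaling factors lay between 0.997 and 1.003, so 3 counts corresponded to between 0.0770 and 0.0897 CPM. The chi-square of a pair of replicates averaged 7.35 to 10.9 per gene, where sampling of whole reads alone gives about 1. A count here may stand for less than 1 read, so whether 2 replicates share a library could not be settled this way. Values of 3 libraries are given below in the order of replicates 1, 2 and 3. MIR155HG, the targeted lncRNA, had 62 to 73 counts in shCtrl and 10 to 28 counts in shmiR155HG libraries, and fell by 1.78 on the log2 scale (SE 0.43, adjusted p = 0.0045, quasi-likelihood test). Of 12 NK cell markers, 11 passed the filter on low counts, with 2 higher (IL2RB, KLRC1) and 2 lower (PRF1, NCR3). Without shCtrl replicate 3, shmiR155HG replicate 2 or shmiR155HG replicate 3, 1 of them was higher. Their summed level was 2807 to 2900 CPM in shCtrl and 3048 to 3130 CPM in shmiR155HG libraries, most of it IL2RB and NKG7, and CD7 and TYROBP were low with at most 32 and 80 counts. Of 17 markers of T cells, B cells, monocytes, erythroid, epithelial and stromal cells, 3 passed the filter, with summed levels of 85.6 to 93.7 CPM in shCtrl and 80.1 to 90.4 CPM in shmiR155HG libraries. Most of that sum was TRAC, followed by ITGAM (241 to 594 counts) and CSF1R (100 to 218 counts). CD3D had 9 to 35 counts and CD79A 9 to 43, and CD14 had 0 to 7 counts in shCtrl and 10 to 23 in shmiR155HG libraries. CD3G, CD4, MS4A1 and LYZ had at most 5 counts in any library, and CD8B, HBB and EPCAM were at 0 in all libraries. ITGAM was called lower among these markers, a call lost in limma-voom and in 4 of 6 leave-one-outs (without shCtrl replicates 2 and 3 and shmiR155HG replicates 1 and 3), and its part in the results below was not tested. These are bulk libraries, so fewer cells that express a gene and less RNA per cell cannot be told apart.

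The sequences shown here are the miRNA made from the targeted transcript, its match in a member, and the stretches before the start sites of the members that rose. miR-155-5p is cut from the MIR155HG transcript, and its mature sequence is listed by RefSeq on the plus strand at chr21:25573983-25574006 (GRCh38.p14). It is shown with its seed, bases 2 to 8, in capitals because its host transcript is the shRNA target. The miRNA itself was not measured in these libraries. The study reports that overexpressed miR-155 did not restore JAK3 protein in shmiR155HG cells, and it proposes that miR155HG acts by binding a different miRNA. That other miRNA had no entry in the reference used here and was not searched.
hsa-miR-155-5p: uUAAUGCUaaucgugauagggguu
Only the canonical transcript of each gene was searched (hg38, GENCODE annotation), not its other annotated transcripts. Among these 3′UTRs of the 7 members, only that of S1PR1 held the reverse complement of this seed. The match lies on the plus strand of chromosome 1 at 101241260 to 101241266, at position 1127 of the 3′UTR, and is given in capitals within chr1:101241249-101241277.
S1PR1 3′UTR: gtgcccttaaaAGCATTActttaactggt
Of 10755 genes tested whose canonical transcript has an annotated 3′UTR, 1278 (11.9%) held this match. A match is a description of letters, not a site shown to be used. S1PR1, the member that holds it, had a log2 fold change of −0.11 and did not pass the test.

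The 250 bases before the RefSeq start sites of KLF2 and S1PR4 are shown because both genes rose and because KLF factors are known to bind a CCACCC core. In the KLF2 stretch (chr19:16324576-16324825, plus strand, hg38), capitals mark the only match to the MEF2 motif, which begins 120 bases before the start. MEF2 factors act on KLF2 transcription below the kinase MAPK7 (ERK5), and this motif was searched after the data had been seen.
KLF2 upstream: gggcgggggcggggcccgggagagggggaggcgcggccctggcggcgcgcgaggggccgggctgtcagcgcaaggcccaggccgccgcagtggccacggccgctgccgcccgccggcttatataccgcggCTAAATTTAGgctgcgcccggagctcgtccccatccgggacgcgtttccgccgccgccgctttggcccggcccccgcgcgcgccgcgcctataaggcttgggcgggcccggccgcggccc
The MEF2 motif was found in 201 of 35116 RefSeq promoter windows (0.572%), which reach from 250 bases before to 50 bases after a start site and were read on both strands. In the S1PR4 stretch (chr19:3178519-3178768, plus strand, hg38), capitals mark the 5 matches to CCACCC on either strand. The stretch lies within the longer annotated span of S1PR4 but in none of its exons.
S1PR4 upstream: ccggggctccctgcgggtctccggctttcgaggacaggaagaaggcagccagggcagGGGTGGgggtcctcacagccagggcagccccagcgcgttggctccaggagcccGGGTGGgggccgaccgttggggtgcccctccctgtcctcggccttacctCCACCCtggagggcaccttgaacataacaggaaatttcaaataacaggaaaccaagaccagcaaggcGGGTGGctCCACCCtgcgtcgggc
At least 1 CCACCC match was found in 34.3% of the 35116 windows, and 5 or more in 65 of them (0.185%). The cut-off of 5 was the count of S1PR4 itself, a gene shown because it rose, and windows were not matched for base composition. The share is therefore a description, and a match is not a site shown to be used. The S1PR1 window held 1 such match and the 2 S1PR5 windows held 3 and 1, while those of KLF2, RGS1 and GPR183 held none. No member window held the letters TGACTCA (AP-1, in 4.95% of windows), TTCNNNGAA (STAT, 7.66%) or GTAAACA (FOXO, 3.42%). CD69 has no entry in the promoter table.

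KLF2 (ENSG00000127528) is a zinc finger transcription factor that holds lymphocytes quiescent and maintains their homing receptors. Its 3 exons span 16324826 to 16328685 of chromosome 19 on the plus strand (hg38, as for all positions). The shCtrl libraries had 37, 84 and 79 counts and the shmiR155HG libraries had 182, 180 and 164 counts. Every shmiR155HG library had about the same level, shCtrl replicate 1 was lower than the other shCtrl libraries, and the groups did not overlap. The log2 fold change was 1.44 (SE 0.29, 95% interval 0.84 to 2.05, adjusted p = 0.000894, quasi-likelihood test). Without shCtrl replicate 1, the low library, it was 1.15 (adjusted p = 0.00731).

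**Figure D1:**
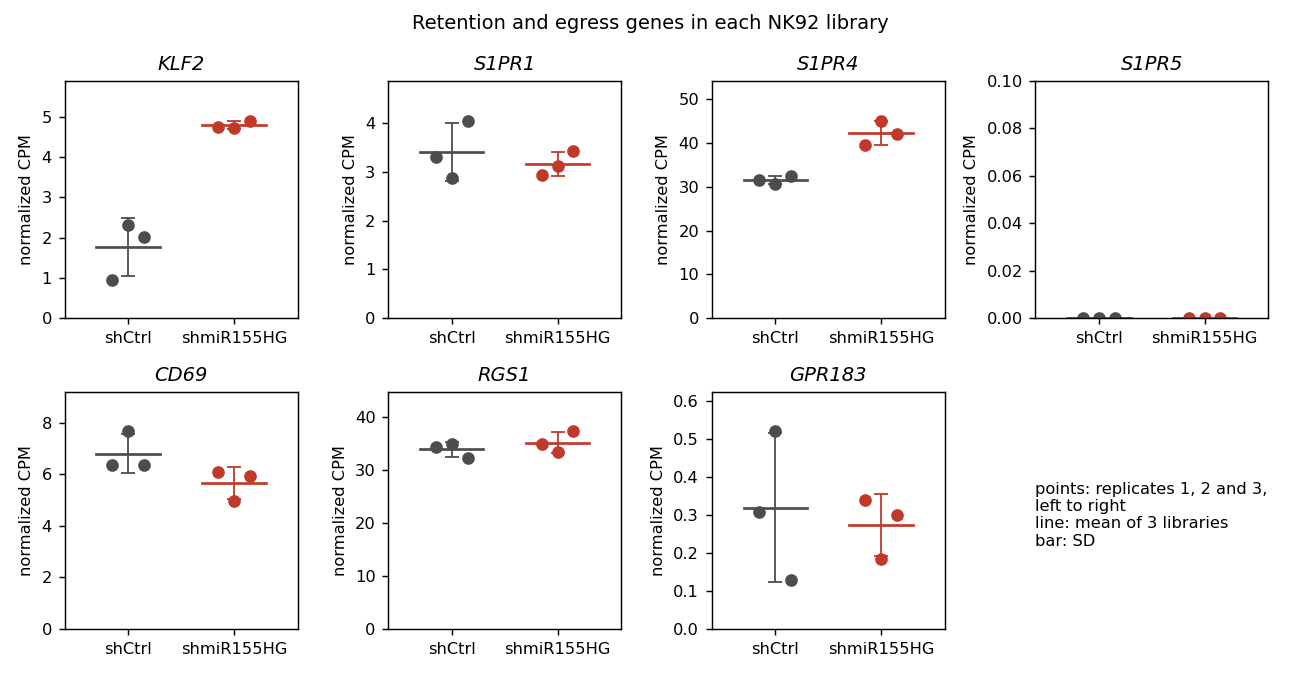
Normalized CPM of the 7 members in each library, with shCtrl in grey and shmiR155HG in red; points are replicates, lines means and bars SD (n = 3). KLF2 lies between 0.951 and 2.30 CPM in shCtrl and between 4.73 and 4.90 CPM in shmiR155HG libraries, S1PR4 is also separated upward, CD69 is separated downward by a narrow gap, and the other drawn groups overlap.

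S1PR4 (ENSG00000125910) encodes an S1P receptor found mainly on haematopoietic cells. It spans 3172346 to 3180332 of the same chromosome and strand, and its canonical transcript is a single exon. The shCtrl libraries had 1224, 1116 and 1262 counts and the shmiR155HG libraries had 1518, 1716 and 1409 counts. The shCtrl libraries lay close together, replicate 2 was the highest of the shmiR155HG libraries, and the groups did not overlap. The log2 fold change was 0.42 (SE 0.077, 95% interval 0.27 to 0.58, adjusted p = 0.000271, quasi-likelihood test). An antisense lncRNA, absent as a row from the count table, overlaps S1PR4 in the annotation, so its reads could not be told apart from those of S1PR4 if strand was not used.

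S1PR1 (ENSG00000170989), the receptor by which most lymphocytes follow S1P into lymph and blood, lies on the plus strand of chromosome 1 from 101236865 to 101243713 with 2 exons. The shCtrl libraries had 129, 105 and 158 counts and the shmiR155HG libraries had 113, 119 and 115 counts. The shCtrl libraries held both the lowest and the highest value, and the shmiR155HG libraries lay between them. The log2 fold change was −0.11 (SE 0.26, 95% interval −0.64 to 0.42, adjusted p = 0.836, quasi-likelihood test), and it turned to 0.03 without shCtrl replicate 3.

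S1PR5 (ENSG00000180739), on the minus strand of chromosome 19 from 10512742 to 10517931, was listed at 0 in all 6 libraries. A count of 0 allows up to 3 counts, or 0.0770 to 0.0897 CPM per library, a limit that covers counting error only. Other genes that many cells use, KLF3 and RGS10, were also listed at 0 in all libraries, and GNAQ had 0 to 6 counts, so a 0 in this table may be a failed estimate.

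CD69 (ENSG00000110848), a C-type lectin of early activation and the counterpart of S1PR1, lies on the minus strand of chromosome 12 from 9752486 to 9760901 with 5 exons. The shCtrl libraries had 248, 280 and 248 counts and the shmiR155HG libraries had 234, 189 and 199 counts. Every shmiR155HG library was below every shCtrl library in normalized level (6.80 ± 0.755 CPM in shCtrl and 5.67 ± 0.616 CPM in shmiR155HG, SD, n = 3 each), though the gap between the nearest libraries was smaller than the spread within either group. The log2 fold change of −0.26 did not pass the test (SE 0.18, 95% interval −0.64 to 0.12, adjusted p = 0.386, quasi-likelihood test). Groups without overlap were common in these data, with 15.2% of all genes tested separated upward and 15.6% downward, beside 2 and 1 of the 5 members tested.

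RGS1 (ENSG00000090104), on the plus strand of chromosome 1 from 192575763 to 192580024, had 1336, 1273 and 1260 counts in the shCtrl libraries and 1339, 1268 and 1247 counts in the shmiR155HG libraries. The groups overlapped, with the highest normalized level in shmiR155HG replicate 3. The log2 fold change was 0.05 (SE 0.079, 95% interval −0.11 to 0.22, adjusted p = 0.72, quasi-likelihood test), so this gene has the narrowest interval among the members that were not called. The antisense lncRNA AL390957.1 overlaps RGS1, with 5 to 40 counts per library.

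GPR183 (ENSG00000169508), on the minus strand of chromosome 13 from 99294539 to 99307399, had 12, 19 and 5 counts in the shCtrl libraries and 13, 7 and 10 counts in the shmiR155HG libraries. It was below the filter and overlapped between the groups, at 0.319 ± 0.197 CPM in shCtrl and 0.274 ± 0.0804 CPM in shmiR155HG cells (SD, n = 3 each, exact permutation test, two-sided, p = 0.8, where 0.1 is the smallest p that 3 libraries against 3 can give). It lies within UBAC2, a gene of the other strand with 3772 to 4630 counts, so stray reads of UBAC2 could make up such a low count if strand was not used.

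**Figure D2:**
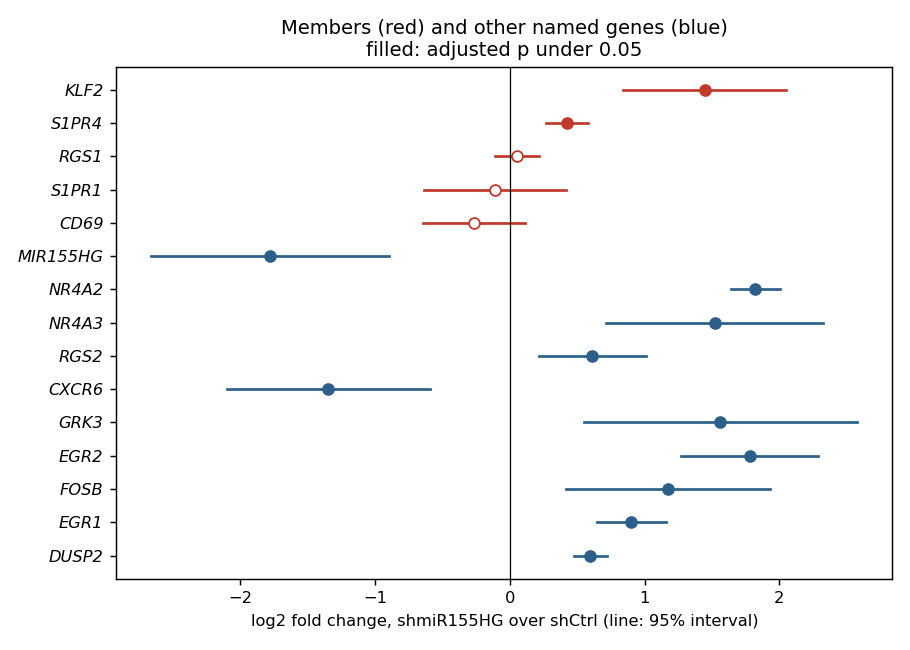
Fitted log2 fold change of shmiR155HG over shCtrl with its 95% interval (n = 3 libraries per group) for the 5 members tested, in red, and for MIR155HG and other named genes, in blue; filled points passed the adjusted p of 0.05. KLF2 (1.44) and S1PR4 (0.42) are the filled members, and the intervals of RGS1, S1PR1 and CD69 span 0.

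Levels were compared between genes only per length, as CPM per kb of annotated exon. In shCtrl cells S1PR4 was the highest at 18.9 ± 0.538, followed by RGS1 at 8.31 ± 0.331, CD69 at 2.40 ± 0.266, S1PR1 at 0.654 ± 0.114, KLF2 at 0.624 ± 0.253 and GPR183 at 0.189 ± 0.117 CPM per kb (SD, n = 3). S1PR1 and KLF2 were the neighbours in this order that did not differ beyond their spread. In shmiR155HG cells KLF2 stood at 1.70 ± 0.0344 CPM per kb, above S1PR1 at 0.607 ± 0.0478 and below CD69 at 2.003 ± 0.217 (SD, n = 3 each). The order in shCtrl cells was the same when the longest annotated transcript gave the length, with S1PR4 at 20.1, RGS1 at 12.8, CD69 at 4.06, S1PR1 at 1.23 and KLF2 at 0.624 CPM per kb, but on that length S1PR1 and KLF2 no longer overlapped.

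**Figure D3:**
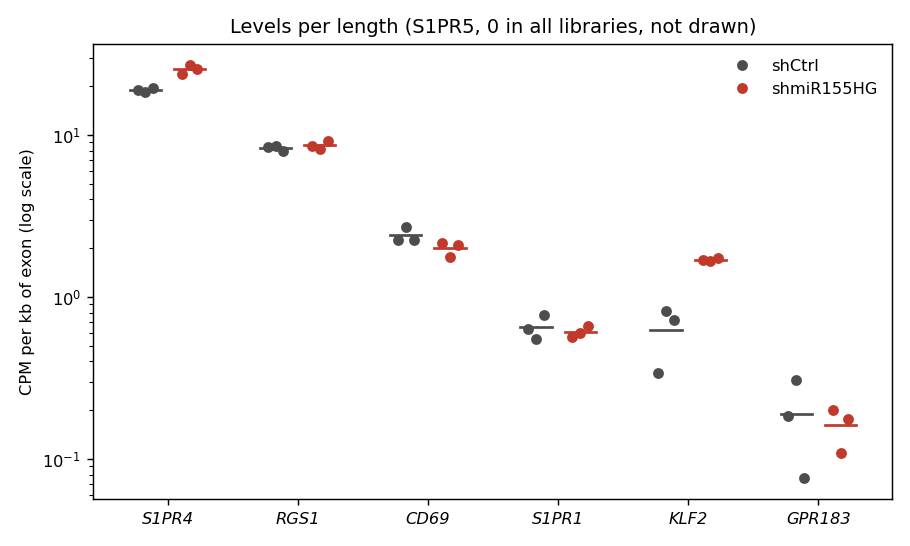
CPM per kb of exon on a log axis in each library of shCtrl (grey) and shmiR155HG (red), with group means as lines (n = 3). S1PR4 and RGS1 lie highest in both groups, S1PR1 and KLF2 lie together in shCtrl cells (0.654 and 0.624), and KLF2 lies at 1.70 in shmiR155HG cells, above S1PR1 at 0.607.

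Among the S1P receptors counted, S1PR4 took most of the level per length, with the doubt that S1PR5 and S1PR3, both listed at 0, may be failed estimates. Of the summed level per length of the 5 S1P receptors, S1PR4 made up 95.8% ± 0.712 in shCtrl and 96.7% ± 0.308 in shmiR155HG cells (SD, n = 3 each). S1PR1 made up 3.30% ± 0.455 and 2.31% ± 0.183, and S1PR2 made up 0.851% ± 0.258 and 1.02% ± 0.143. The sum itself was 19.8 ± 0.707 CPM per kb in shCtrl and 26.3 ± 1.66 CPM per kb in shmiR155HG cells (SD, n = 3 each). The lower share of S1PR1 is not a separate result, since S1PR1 was not called and most of the sum is S1PR4. Shares were computed on annotated exon length only. The longest annotated transcript gives S1PR1 a higher level per length (mean 1.23 against 0.654 CPM per kb in shCtrl cells). S1PR2, which holds cells back from S1P rather than drawing them, was below the filter with 22, 16 and 33 counts in the shCtrl libraries and 38, 33 and 35 counts in the shmiR155HG libraries. Its normalized levels did not overlap, at 0.617 ± 0.209 and 0.968 ± 0.0918 CPM (SD, n = 3 each, two-sided exact permutation p = 0.1, the lowest value open to 3 libraries against 3). S1PR3 was listed at 0 in every library.

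KLF2 and S1PR1, a factor and its known target, were set side by side in each library. The log2 ratio of KLF2 to S1PR1 per length was −0.91, 0.57 and −0.11 in the shCtrl libraries and 1.58, 1.49 and 1.40 in the shmiR155HG libraries. The shCtrl libraries were spread widely in this ratio, and all lay below the shmiR155HG libraries. This separation follows from the KLF2 values given above, since S1PR1 was not called, and is not a separate result. The log2 ratio of CD69 to S1PR1, retention over egress, was 1.89 ± 0.386 in shCtrl and 1.72 ± 0.195 in shmiR155HG cells, and that of RGS1 to S1PR1 was 3.68 ± 0.305 and 3.83 ± 0.0822 (SD, n = 3 each), both within the spread between libraries.

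The gene lists here and below were chosen with earlier results of these data known. Their counts stand beside 7.26% of all genes tested called higher and 8.02% called lower. Genes that make, break and export S1P were read from a list of 19, of which 13 were tested. None was called higher and 2 were called lower, with a median log2 fold change of −0.08. These were ASAH1, the acid ceramidase that frees sphingosine (−0.30, SE 0.089, adjusted p = 0.0191, quasi-likelihood test), and CERS6, a ceramide synthase (−0.14, SE 0.040, adjusted p = 0.0195, quasi-likelihood test). The count of 2 was 1 without shCtrl replicate 3, shmiR155HG replicate 1 or shmiR155HG replicate 2, and 0 without shmiR155HG replicate 3. Of the kinases that make S1P, SPHK1 had at most 3 counts per library and SPHK2 was at 41.5 ± 3.71 CPM in shCtrl and 46.1 ± 3.90 CPM in shmiR155HG cells (SD, n = 3 each, adjusted p = 0.221, quasi-likelihood test). The lyase SGPL1 and the exporter SPNS2 had log2 fold changes of −0.01 and −0.19 and were not called. Of 4 genes of the oxysterol ligand of GPR183, CH25H and CYP7B1, which make it, were listed at 0 in all libraries, and HSD3B7, which breaks it down, was tested and not called (−0.10, adjusted p = 0.568, quasi-likelihood test).

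Of 13 factors and kinases upstream of KLF2 and related KLF genes, 11 were tested, with 2 higher, 0 lower and a median of 0.08. KLF10 rose by 0.29 (SE 0.056, adjusted p = 0.000537, quasi-likelihood test) and KLF13 by 0.18 (SE 0.041, adjusted p = 0.00246, quasi-likelihood test) on the log2 scale, with all shmiR155HG libraries above all shCtrl libraries. FOXO1, which is known to drive KLF2, had a value of −0.15 on the log2 scale (adjusted p = 0.704, quasi-likelihood test), and its counts of 166 to 332 overlapped between the groups. MEF2A, MEF2C, MEF2D and the kinases MAP3K3, MAP2K5 and MAPK7 were not called, with log2 fold changes between −0.02 (MAPK7) and 0.27 (MAP2K5, adjusted p = 0.083, quasi-likelihood test).

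Genes of recirculating lymphocytes numbered 21, of which 11 were tested, with 3 higher (KLF2, RASGRP2, TBX21), 1 lower (ITGB7) and a median of 0.01. The count of 3 was 2 without shCtrl replicate 1 or shCtrl replicate 2, where KLF2 was still called. RASGRP2, an activator of the small GTPase Rap1, rose by 0.41 (SE 0.13, adjusted p = 0.0274, quasi-likelihood test), and ITGB7, an integrin chain of gut homing, fell by 0.43 on the log2 scale (SE 0.039, adjusted p = 5.51e-09, quasi-likelihood test). The homing receptor CCR7, a known target of KLF2, was tested and not called. CCR7 was at 46.1 ± 4.11 and 46.3 ± 2.89 CPM in shCtrl and shmiR155HG cells (SD, n = 3 each, log2 fold change 0.0050, 95% interval −0.15 to 0.16, adjusted p = 0.978, quasi-likelihood test). IL7R, LEF1, SBF2 and SOX13 were listed at 0, and RAP1GAP2, at 26 to 92 counts, had a log2 fold change of 1.09, short of the threshold (adjusted p = 0.0635, SE 0.40, quasi-likelihood test).

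Genes of resident lymphocytes numbered 25, of which 20 were tested, with 9 higher, 2 lower, 9 not called and a median of 0.14. Among all genes tested, 7.26% were called higher and 8.02% lower. This list was chosen with earlier results of these data known, so its counts are descriptions. The count of 9 was 6 without shCtrl replicate 2 and 7 without shmiR155HG replicate 1. The list holds CD69 and RGS1, which were not called. ITGAE and ITGA1, the alpha chains of the integrins by which resident cells hold on to epithelium and collagen, were not called either. ITGB7, the chain that pairs with ITGAE, is not in this list and was called lower, as given above. ITGAE (CD103) was at 45.3 ± 1.46 and 48.6 ± 0.518 CPM in shCtrl and shmiR155HG cells (SD, n = 3 each, adjusted p = 0.338, quasi-likelihood test), and ITGA1 (CD49a) at 117 ± 4.69 and 108 ± 1.61 CPM (SD, n = 3 each, adjusted p = 0.108, quasi-likelihood test). The larger changes were in the orphan nuclear receptors NR4A2 and NR4A3. NR4A2 had 467, 504 and 535 counts in shCtrl and 1749, 1778 and 1587 counts in shmiR155HG libraries (log2 fold change 1.82, SE 0.089, adjusted p = 1.32e-14, quasi-likelihood test). NR4A3 had 37, 21 and 33 against 102, 56 and 91 counts (1.52, SE 0.39, adjusted p = 0.00763, quasi-likelihood test), while NR4A1 was not called (0.12). CXCR6, the chemokine receptor of liver-resident NK cells, fell from 85, 79 and 109 to 37, 25 and 40 counts, by 1.35 on the log2 scale (SE 0.37, adjusted p = 0.0116, quasi-likelihood test). Its call was lost without shCtrl replicate 3 (adjusted p = 0.0505) and without shmiR155HG replicate 2 (adjusted p = 0.0673). The transcription factors RUNX3 (0.49), EOMES (0.32), PRDM1 (0.28), RBPJ (0.21) and BHLHE40 (0.14) also rose on the log2 scale. So did the receptor NOTCH1 (0.38), and IL10 fell by 0.51.

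**Figure D4:**
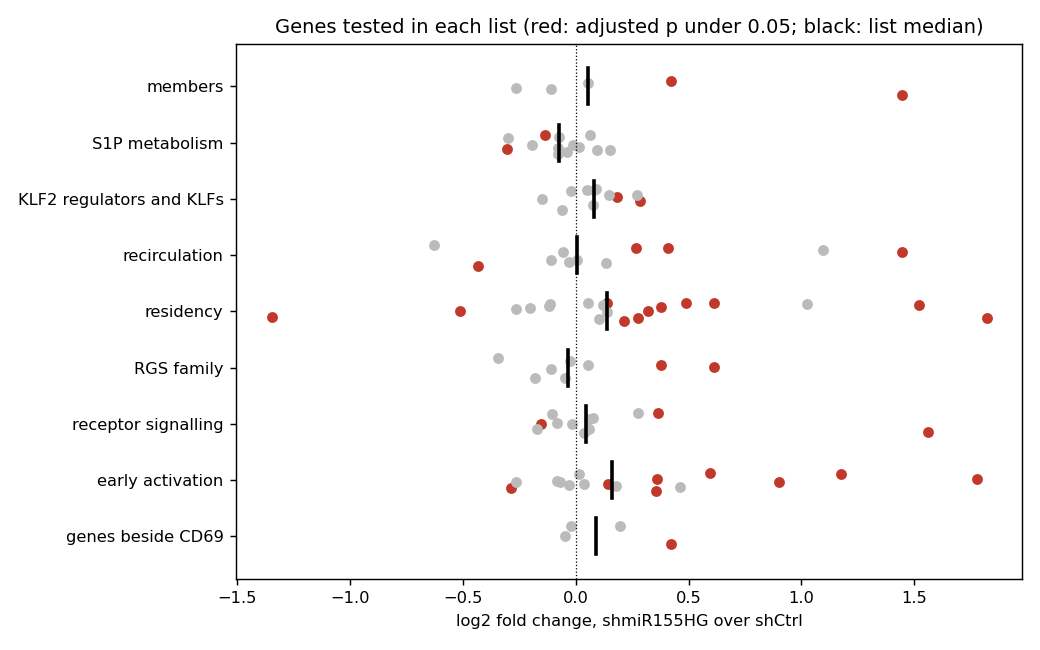
Log2 fold change of shmiR155HG over shCtrl for each gene tested in the members and 8 lists; red points had an adjusted p under 0.05, grey points did not, and black bars are list medians. The medians lie between −0.08 (S1P metabolism) and 0.16 (early activation), and the furthest red points are NR4A2 (1.82), EGR2 (1.78) and CXCR6 (−1.35).

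RGS1 was set beside the other RGS genes, of which 8 of 11 were tested, with 2 higher, 0 lower and a median of −0.04. RGS16, at 254 ± 4.76 CPM in shCtrl cells (SD, n = 3), rose by 0.38 (SE 0.036, adjusted p = 1.34e-08, quasi-likelihood test) and RGS2 by 0.61 (SE 0.19, adjusted p = 0.0296, quasi-likelihood test) on the log2 scale. The RGS2 call was lost in 4 of 6 leave-one-outs, without shCtrl replicates 2 and 3 and shmiR155HG replicates 1 and 3 (adjusted p = 0.0575, 0.129, 0.094 and 0.102). Among 17 G protein, kinase and arrestin genes that carry or end the signal of these receptors, 12 were tested, with 2 higher, 1 lower and a median of 0.05. GNA12, a G protein chain that couples to S1P receptors, rose by 0.36 (SE 0.077, adjusted p = 0.00128, quasi-likelihood test), and GRK6, a receptor kinase, fell by 0.15 on the log2 scale (SE 0.042, adjusted p = 0.0118, quasi-likelihood test). GRK3 rested on 8 to 47 counts (1.56, SE 0.49, adjusted p = 0.0305, quasi-likelihood test) and kept its call in 8 of 15 alternative settings. GRK2, which removes S1PR1 from the surface in blood, and GNAI2, the chain through which S1PR1 signals, were not called (0.06 each).

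CD69 is an early activation gene, and 16 of 20 genes of that kind were tested, with 7 higher, 1 lower and a median of 0.16. These counts stand beside 7.26% higher and 8.02% lower among all genes tested, and this list too was chosen with earlier results known. The immediate early factors EGR2 (1.78, SE 0.25, adjusted p = 7.47e-06, quasi-likelihood test) and EGR1 (0.90, SE 0.13, adjusted p = 6.63e-06, quasi-likelihood test) and the phosphatase DUSP2 (0.60, SE 0.059, adjusted p = 2.68e-08, quasi-likelihood test) rose on the log2 scale. FOSB rose by 1.18 (SE 0.37, adjusted p = 0.0288, quasi-likelihood test), with 56, 74 and 21 counts in shCtrl and 115, 115 and 101 in shmiR155HG libraries, and kept its call in 10 of 15 alternative settings. NFKBIA fell by 0.29, and IL2RA (0.01), JUN (−0.03) and TFRC (−0.07), like CD69, were not called. Beside CD69 in the NK gene complex of chromosome 12, 4 of 10 genes were tested. CLEC2D, the ligand of KLRB1, rose by 0.42 (SE 0.070, adjusted p = 0.000191, quasi-likelihood test), KLRF2, CLEC2B and CLEC12A were not called, and KLRB1 itself had at most 2 counts.

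For each member tested, the genes of most similar pattern were sought among 9722 genes of at least 5 CPM on average, by Pearson's r of log2 CPM over the 6 libraries. For KLF2 they were LDB1 (r = 0.999) and GNA12 (0.995), and for S1PR4 they were PITPNC1 (0.998) and PDE3A (0.996). For S1PR1 they were VARS (0.994) and CPSF1 (0.988), for CD69 IPCEF1 (0.977) and ANKZF1 (0.976), and for RGS1 SHLD1 (0.992) and C19orf53 (0.987). The 6 points share the 2 groups and their libraries, and the highest of 9722 values is high by selection, so these are descriptions. Of these, LDB1 (0.25), GNA12 (0.36) and PDE3A (0.55) were themselves called higher on the log2 scale.

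The rule the study states for its own list (exact test of edgeR, a fold change above 1.2 and P below 0.01 without adjustment) was also applied. By it 4.5% of genes tested were higher (552) and 3.81% lower (467), and the members called were again KLF2 and S1PR4. Both counts are below those the study printed for its own list, so that list was not reproduced, and the reason was not tested.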

How the data were processed

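Poly(A) RNA was sequenced from 3 shCtrl and 3 shmiR155HG libraries of NK92 cells. Reads were mapped by the authors with HISAT2 (hg38). They estimated the reference transcripts with StringTie, merged them with prepDE.py3, and deposited whole-number counts per gene without normalization. The annotation release and the use of strand are not given in the sources used here, and a count may stand for less than 1 read. Titles gave the groups, because the treatment labels of shmiR155HG replicates 2 and 3 spell the target with a different number.

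The software was R 4.3.3, with DESeq2 1.42.0, limma 3.58.1 and edgeR 4.0.16 as packages. The filter kept genes above 1 CPM in 2 or more libraries, and TMM gave the scaling. The main test was edgeR's robust quasi-likelihood test, Benjamini-Hochberg adjusted over 12263 genes, without a replicate block. It was tested on simulated data. Log2 fold changes are shmiR155HG over shCtrl. Floors and intervals of counts cover counting error only. Same-numbered libraries did not deviate together (correlations −0.013, 0.012 and 0.020), so the numbers were not taken as pairs.

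Members and gene lists were chosen with earlier results of these data known. Named were the members, MIR155HG, S1PR2, S1PR3, CCR7, FOXO1, ITGAE and ITGA1, up to 4 called genes per list with an absolute log2 fold change of at least 0.5 and no overlap between groups, and the 2 genes most like each member. Some items of these lists are not reported here. Other genes were named after their values were seen. Alternatives were other scalings, filters, halved counts, tests, the block and each library left out. Sequences came from RefSeq tables (GRCh38.p14; 6 of 7 members had a promoter) and hg38 with GENCODE; proteins were not analysed here.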

Additional observations from a re-analysis of the deposited data

How the results depend on the processing

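KLF2 was called higher in 15 of 15 alternative settings (log2 fold change 1.15 to 1.68) and S1PR4 in 16 of 16 (0.38 to 0.47). CD69 was called in 0 of 16 (−0.32 to −0.17) and RGS1 in 0 of 16. The number of members called higher was 1 in place of 2 when a mean of at least 5 CPM was required, because KLF2 and S1PR1 are below it. S1PR1 turned to 0.034 without shCtrl replicate 3 (range over libraries left out −0.22 to 0.034). CCR7 turned to −0.00011 without a filter and ranged from −0.066 to 0.047, and FOXO1 from −0.37 to 0.053, with libraries left out; the cause was not tested. The number of all genes called higher, 890, ranged from 580 (without shmiR155HG replicate 2) to 891 with 1 library left out and from 805 to 970 in the other settings. With the replicate number as a block, 829 genes were higher and 909 lower, and KLF2 (1.51) and S1PR4 (0.42) were still called. Where 1 group keeps 2 libraries, the fit takes the spread from all 5. Comparison of protein sequences was not run. GPR183 and S1PR2 were below the filter on low counts.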
